A study of Mus musculus with 20 samples.

Results

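A set of 10 genes used as markers of lipid-associated macrophages was followed in mouse livers: *Trem2*, *Itgax*, *Gpnmb*, *Cd63*, *Cd9*, *Lpl*, *Fabp5*, *Lyz2*, *Lgals3* and *Mmp12*. They were found by their symbols in the table of read counts, and all 10 were present among its 50559 genes. Lipid-associated macrophages collect in fatty and scarred tissue, where they surround dying or lipid-laden cells. They sense lipid through the receptor TREM2, carry a large lysosomal and lipid-handling apparatus, and release proteins that act on the matrix around them. In the liver they are best known from steatohepatitis, in which cells derived from monocytes take up this state beside the resident Kupffer cells.

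RNA was sequenced from 20 livers in 4 groups of 5. Every mouse carried the Cideb fl/fl alleles and received an AAV whose TBG promoter is active in hepatocytes. AAV-TBG-GFP left *Cideb* intact (WT) and AAV-TBG-Cre deleted it in hepatocytes (KO), so the macrophages themselves were not the cells targeted. WT and KO livers were compared on a Western diet (WD) and on CDA-HFD, a high-fat diet that lacks choline and has defined amino acids. The labels give 3 months for each diet, while the figure legends of the study give a longer period on WD. The difference between diets therefore cannot be told apart from duration, cohort or library batch. The labels number the livers of a group and do not say more about their source, so p-values measure the spread between these samples.

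The libraries held 11697049 to 16827147 reads assigned to genes. *Cideb* had 52 to 100 reads in WT and 0 to 5 in KO livers on WD, and 35 to 60 and 0 to 6 on CDA-HFD. The general macrophage genes *Csf1r*, *Adgre1* and *Cd68* were present in every liver, and a list of 10 such genes summed to between 422 and 1433 CPM, that is, reads scaled to a common library total. Levels are CPM after TMM scaling of the libraries, with the livers of a group in the order of their numbers. One library stood apart. KO liver 5 on CDA-HFD held 1 *Cideb* read, as its label requires, but for all 10 genes it was far from the other 4 KO livers. Each result on CDA-HFD that rests on it is given with and without it. Because it was set apart by its values for these same 10 genes, the results without it are descriptive and no independent test. SE is the standard error of a fitted log2 fold change. Since whole liver was measured, fewer macrophages, less RNA per macrophage and a change in RNA from other liver cells cannot be told apart.

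The 10 genes lie on 8 chromosomes in the GRCm38 annotation. *Trem2* spans 48346401 to 48354147 on chromosome 17, *Itgax* 128129547 to 128150657 on chromosome 7 and *Gpnmb* 49036546 to 49070929 on chromosome 6. *Cd9* spans 125460266 to 125494791 on chromosome 6. *Lyz2* (117277331 to 117282321) and *Cd63* (128900989 to 128912822) are both on chromosome 10. *Lpl* spans 68880491 to 68907448 on chromosome 8, *Fabp5* 10012548 to 10016607 on chromosome 3, *Mmp12* 7344381 to 7369499 on chromosome 9 and *Lgals3* 47367751 to 47386160 on chromosome 14. Some stretches of sequence are shared with other genes. Of the 75-base stretches of the *Lyz2* transcripts, 5.96% also occur in *Lyz1*, its neighbor, and 6.47% of those of *Cd63* occur in *Cd63-ps*, a pseudogene. For *Itgax* 5.01% occur in *Itgad*, and for *Fabp5* 3.03% occur in 2 unnamed gene models. Exons of *Cd9* share 218 bases with a transcript on the other strand, and exons of *Mmp12* share 157 bases with *Mmp1b* on the other strand. Because the sources disagree on whether the library kept the strand, reads from these bases are uncertain.

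Promoter windows from RefSeq (GRCm38.p6, 250 bases before to 50 after a transcript start) were given for 8 of the 10 genes, in 9 windows. They were searched on both strands for TGANTCA, the letters of an AP-1 site, for GAGGAA, letters found in PU.1 sites, and for CACGTG, the E-box used by MiT/TFE factors. TGANTCA was in windows of 4 of the 8 genes (*Trem2*, *Itgax*, *Gpnmb* and *Mmp12*) and in 7.81% of all 32851 windows. GAGGAA was in windows of 3 of the 8 (*Trem2*, *Cd63* and *Mmp12*) and in 28.3% of all windows. CACGTG was in none of the 8 and in 7.15% of all windows. The stretches that hold TGANTCA are shown, since more than 1 of the 10 genes has it close to its start. Each is 150 bases on the plus strand, from 100 bases before the start to 50 after, and capitals mark TGANTCA and, in *Trem2*, GAGGAA on the other strand. They are chr17:48346301-48346450 for *Trem2*, chr7:128129450-128129599 for *Itgax*, chr6:49036418-49036567 for *Gpnmb* and chr9:7347274-7347423 for the second start of *Mmp12*. The motif begins 9 bases before the start in *Trem2*, 56 before in *Itgax*, 44 before in *Mmp12* and 8 after in *Gpnmb*. Its N is A in *Trem2*, G in *Itgax* and *Mmp12* and C in *Gpnmb*.
Trem2: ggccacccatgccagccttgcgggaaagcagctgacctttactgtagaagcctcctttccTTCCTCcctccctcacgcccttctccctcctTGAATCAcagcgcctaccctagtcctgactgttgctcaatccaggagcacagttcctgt
Itgax: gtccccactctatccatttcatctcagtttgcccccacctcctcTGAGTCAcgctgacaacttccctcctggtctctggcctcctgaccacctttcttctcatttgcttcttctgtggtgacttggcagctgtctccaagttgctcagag
Gpnmb: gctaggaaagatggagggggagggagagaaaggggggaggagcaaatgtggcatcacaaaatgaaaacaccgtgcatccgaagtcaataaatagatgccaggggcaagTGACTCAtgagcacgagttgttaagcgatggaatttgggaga
Mmp12: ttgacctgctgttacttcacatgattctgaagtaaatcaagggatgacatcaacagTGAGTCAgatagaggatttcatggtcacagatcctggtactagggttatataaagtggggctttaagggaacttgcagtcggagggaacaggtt

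The first comparison asked whether the genes differed between KO and WT livers on CDA-HFD. All 10 had a lower mean in KO livers, with log2 fold changes from -1.32 for *Cd9* to -2.75 for *Mmp12* and a median of -1.81, while the median over all genes tested was 0.0050. Of these, 6 passed the threshold as lower, an adjusted p under 0.05 in edgeR's quasi-likelihood test with Benjamini-Hochberg adjustment over 17204 genes: *Trem2*, *Cd9*, *Lpl*, *Fabp5*, *Mmp12* and *Lgals3*. Among all genes tested, 7.29% passed as lower. At an unadjusted p under 0.05 there were 10 of 10, beside 35.3% of all genes. Without KO liver 5, 10 of 10 passed as lower, with log2 fold changes from -1.91 to -3.93, beside 21.8% of all genes. The 2 groups did not overlap for *Lpl* and *Mmp12* (2 of 10), against 9.57% of all genes, and for all 10 genes once KO liver 5 was left out, against 34.1% of all genes.

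**Figure D1:**
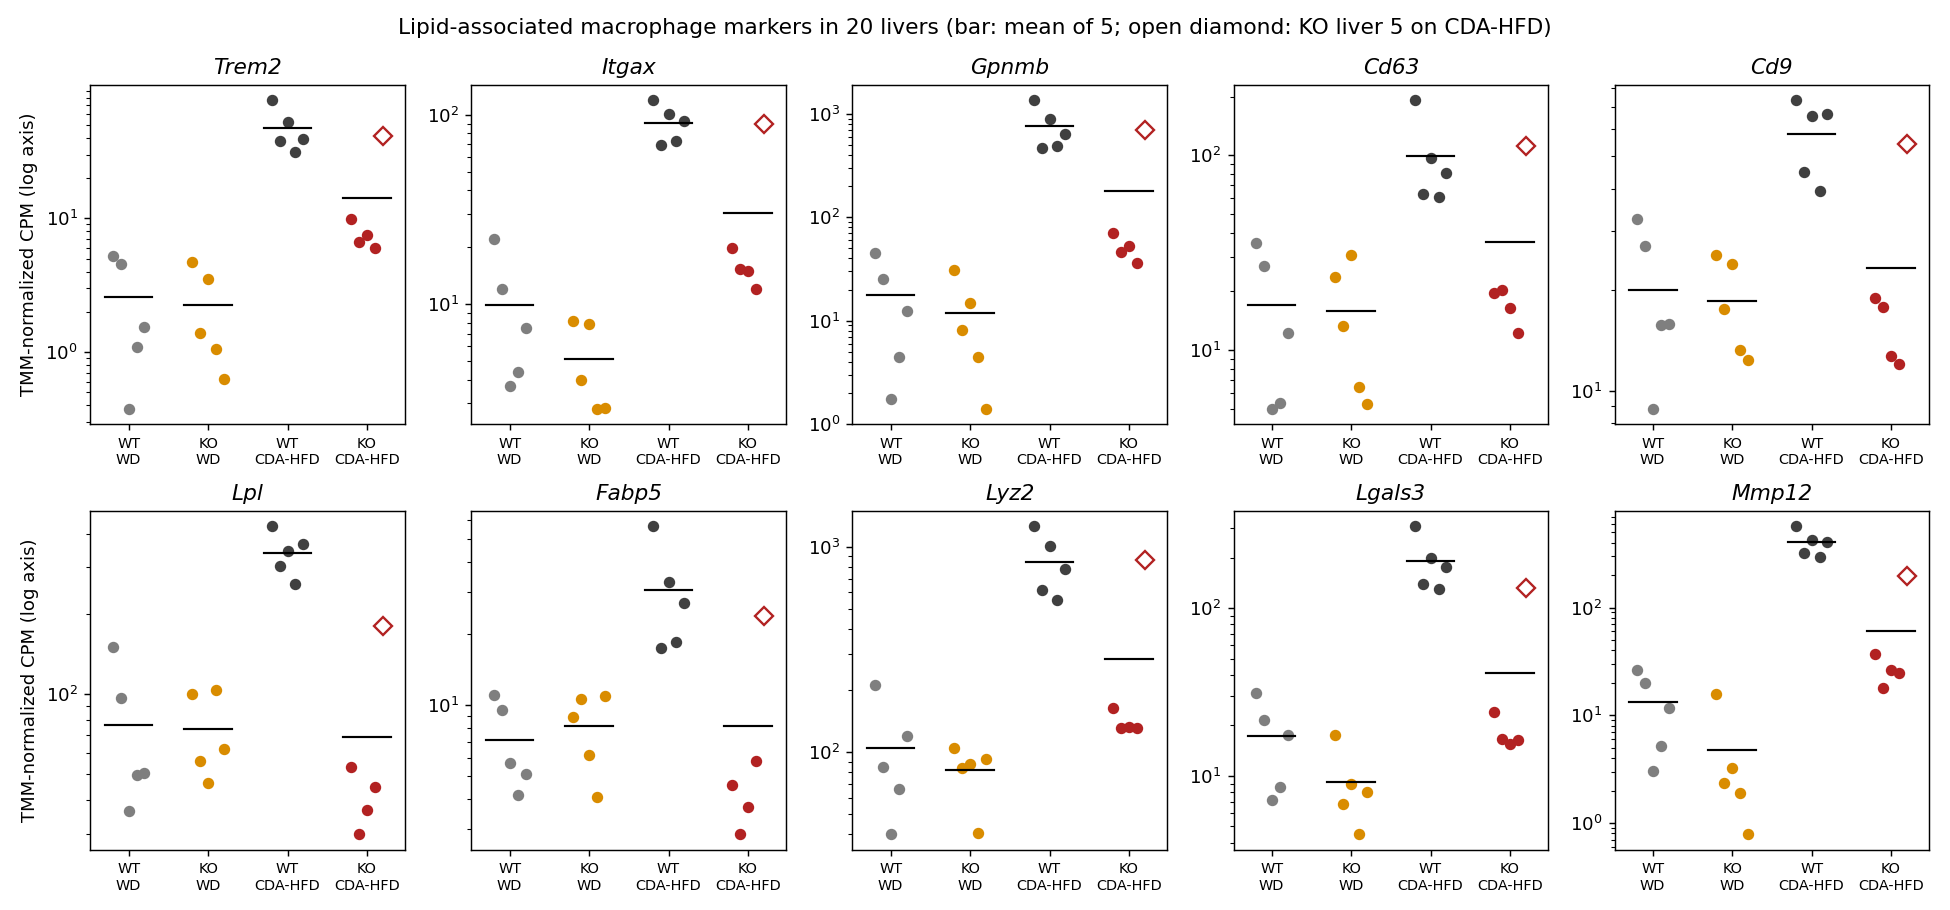
TMM-normalized CPM (log axis) of the 10 genes in each liver, by vector and diet. Points are livers, bars are means of 5, and the open diamond is KO liver 5 on CDA-HFD, which lies at 699 CPM for *Gpnmb* while the other 4 KO livers lie between 36.2 and 70.6.

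*Trem2* encodes the lipid-sensing receptor of the state. On CDA-HFD it was at 76.2, 37.9, 52.1, 31.4 and 39.1 CPM in the WT livers. In the KO livers it was at 9.96, 6.65, 7.45, 6.03 and 41.4 CPM. The first 4 KO livers were below every WT liver and the fifth was within the WT range. *Trem2* was lower in KO livers (log2 fold change -1.73, SE 0.53, edgeR adjusted p = 0.0480). Without KO liver 5 the fold change was -2.65 (edgeR adjusted p = 9.67e-05), and without any other single liver the call was lost. *Itgax* encodes CD11c, the integrin α chain that pairs with *Itgb2*. It was at 119, 69.1, 101, 72.5 and 93.2 CPM in WT and at 19.8, 15.3, 15, 12.0 and 89.7 CPM in KO livers. Its groups overlapped only through KO liver 5, and its log2 fold change of -1.59 did not pass (edgeR adjusted p = 0.0590). Without that liver it was -2.55 (edgeR adjusted p = 4.99e-05).

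*Gpnmb*, *Cd63* and *Cd9* encode membrane proteins, the first a glycoprotein of lysosomes and the cell surface and the others tetraspanins of late endosomes and the surface. *Gpnmb* was at 1350, 463, 882, 483 and 639 CPM in the WT livers on CDA-HFD. It was at 70.6, 46.4, 52.2, 36.2 and 699 CPM in the KO livers. KO livers 1 to 4 were all far below the lowest WT liver, and KO liver 5 was above 3 of the 5 WT livers. The log2 fold change was -2.08 (SE 0.82) and did not pass (edgeR adjusted p = 0.10), and without KO liver 5 it was -3.89 (edgeR adjusted p = 6.71e-05). *Cd63* was at 191, 62.9, 96.6, 60.7 and 81.5 CPM in WT and at 19.5, 20.4, 16.4, 12.2 and 111 CPM in KO livers. KO liver 5 was exceeded only by WT liver 1, and the log2 fold change of -1.46 did not pass (edgeR adjusted p = 0.112). *Cd9* was at 73.3, 44.8, 65.8, 39.4 and 66.6 CPM in WT and at 19.0, 17.8, 12.7, 12.1 and 54.4 CPM in KO livers. It was lower in KO livers by the smallest amount of the 10 genes (log2 fold change -1.32, SE 0.39, edgeR adjusted p = 0.0442).

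Lipoprotein lipase, the product of *Lpl*, releases fatty acids from triglyceride-rich lipoproteins, and *Fabp5* encodes a cytosolic carrier of fatty acids. *Lpl* was at 427, 302, 345, 259 and 364 CPM in WT livers on CDA-HFD. In KO livers it was at 53.1, 29.8, 36.8, 44.8 and 180 CPM. Every KO liver, the fifth included, was below every WT liver (exact two-sided permutation test, p = 0.00794, the lowest value that this number of livers can give). Its fold change was -2.30 on the log2 scale (SE 0.46, edgeR adjusted p = 0.0142), and *Lpl* alone of the 10 passed whichever single liver was left out. *Fabp5* was at 56.7, 17.3, 32.9, 18.4 and 26.8 CPM in WT and at 4.60, 2.85, 3.72, 5.81 and 23.8 CPM in KO livers. It was lower in KO livers (log2 fold change -1.90, SE 0.57, edgeR adjusted p = 0.0467), a call that remained only without WT liver 4 or KO liver 5 when 1 liver was left out. Adipocytes also express both genes. A list of 4 adipocyte markers summed to at most 0.441 CPM in any liver on CDA-HFD. On WD it summed to 20.8 to 92.4 CPM in WT and 0.373 to 52.2 CPM in KO livers, nearly all of it *Cfd*, while *Adipoq*, *Plin1* and *Lep* were each at most 0.120 CPM in every liver on either diet.

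*Lyz2*, *Lgals3* and *Mmp12* encode secreted proteins: lysozyme of myeloid cells, the galectin that binds β-galactosides, and the macrophage elastase. *Lyz2* was at 1263, 617, 1008, 554 and 782 CPM in WT livers and at 165, 131, 132, 131 and 865 CPM in KO livers. KO liver 5 was above 3 of the WT livers, and the log2 fold change of -1.58 did not pass (edgeR adjusted p = 0.0751). *Lgals3* was at 309, 139, 200, 130 and 175 CPM in WT and at 24.1, 16.5, 15.6, 16.3 and 132 CPM in KO livers. KO liver 5 was just above the lowest WT liver, and *Lgals3* was lower in KO livers (log2 fold change -2.22, SE 0.62, edgeR adjusted p = 0.0365). *Mmp12* was at 571, 319, 427, 293 and 405 CPM in WT livers. In KO livers it was at 37.2, 17.8, 26.1, 24.6 and 195 CPM. The groups did not overlap (exact permutation test, p = 0.00794), and the log2 fold change of -2.75 (SE 0.63, edgeR adjusted p = 0.0208) was the furthest from 0 among the 10 genes. Its call was lost without WT liver 3, KO liver 1 or KO liver 3. That of *Lgals3* remained only without WT liver 2, WT liver 4 or KO liver 5, and that of *Cd9* only without WT liver 4 or KO liver 5. Without KO liver 5 the log2 fold changes of the genes not yet given so were -2.52 for *Cd63*, -1.91 for *Cd9*, -3.05 for *Lpl*, -2.85 for *Fabp5*, -2.59 for *Lyz2*, -3.39 for *Lgals3* and -3.93 for *Mmp12*, with edgeR adjusted p-values from 4.03e-05 for *Lpl* and *Mmp12* to 0.000374 for *Cd63*. For the 8 genes whose groups overlapped, exact two-sided permutation p-values ran from 0.0159 for *Lgals3* to 0.0635 for *Cd63*, in a family of 10 tests on this diet.

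**Figure D2:**
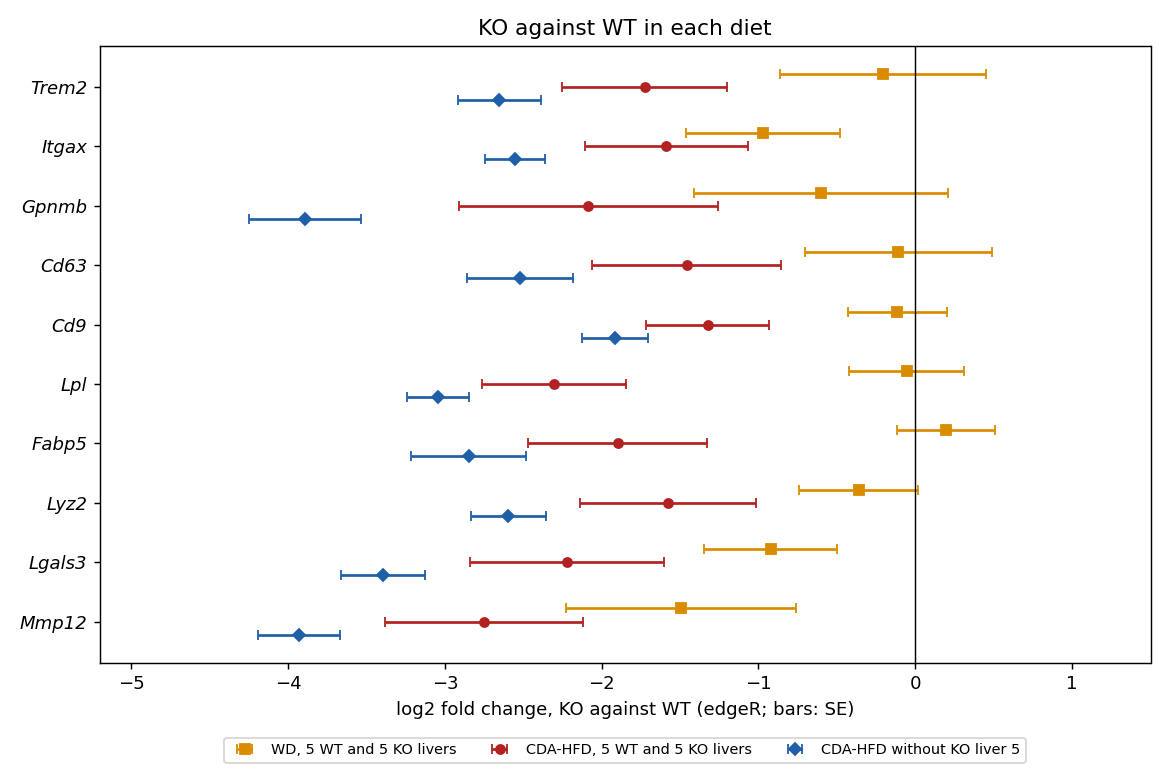
Log2 fold changes of KO against WT livers (edgeR) with standard errors, on WD and on CDA-HFD with and without KO liver 5. On CDA-HFD all 10 values lie below 0 and move further from it without KO liver 5, while on WD they run from -1.49 for *Mmp12* to 0.20 for *Fabp5*.

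The same comparison on WD showed no difference that passed. None of the 10 genes was called by edgeR among 15848 genes tested, and 0 were called by DESeq2. Of all genes, 12 were called, or 0.0757%. At an unadjusted p under 0.05 there was 1 of the 10 genes, *Lgals3*, beside 10.7% of all genes tested. *Lgals3* was at 31.4, 21.6, 7.19, 8.63 and 17.7 CPM in WT and at 17.7, 6.85, 8.95, 4.48 and 8.07 CPM in KO livers. The groups overlapped (log2 fold change -0.92, SE 0.42, edgeR adjusted p = 0.465). *Mmp12* was at 26.4, 19.8, 3.03, 5.16 and 11.7 CPM in WT livers and at 15.6, 2.33, 3.26, 1.90 and 0.783 CPM in KO livers. The difference was -1.49 on the log2 scale (SE 0.74, edgeR adjusted p = 0.495), and KO liver 1 was far above the other 4. Without that liver it was -2.68 (edgeR adjusted p = 0.207), which did not pass either. For *Itgax* the WT livers were at 22.0, 12.0, 3.71, 4.36 and 7.52 CPM and the KO livers at 8.19, 3.97, 7.83, 2.81 and 2.82 CPM, a log2 fold change of -0.97 (edgeR adjusted p = 0.506).

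The other 7 genes had log2 fold changes on WD between -0.60 for *Gpnmb* and 0.20 for *Fabp5*. The spread within a group was wide. WT livers ran from 1.74 to 45.4 CPM for *Gpnmb*, from 0.378 to 5.25 CPM for *Trem2* and from 36.5 to 151 CPM for *Lpl*, with WT liver 1 the highest of its group for all 10 genes. KO livers ran from 1.41 to 30.8 CPM, from 0.626 to 4.69 CPM and from 46.2 to 104 CPM for the same genes. Without WT liver 1, the fold changes of *Trem2*, *Gpnmb*, *Cd9*, *Lpl*, *Cd63* and *Lyz2* turned positive, so that no direction can be given for them. *Trem2* had only 5 to 67 reads per liver on WD. Its log2 fold change of -0.21 had an SE of 0.66, so a moderate difference could have been missed.

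Whether the KO effect differed between the diets was tested by the interaction term over all 20 livers. None of the 10 genes passed among 17804 genes tested by edgeR, where 0.556% of all genes did, and DESeq2 called 1, *Lpl*. All 10 terms were below 0. At an unadjusted p under 0.05 there were 3 of the 10 genes, *Cd9*, *Lpl* and *Fabp5*, beside 15.4% of all genes. *Lpl* had a term of -2.24 (SE 0.62, edgeR adjusted p = 0.112). *Fabp5* had -2.09 (SE 0.70, edgeR adjusted p = 0.173). Without KO liver 5, 8 of the 10 genes passed with terms below 0, beside 5.71% of all genes, among them *Lpl* at -2.99 (edgeR adjusted p = 0.00214) and *Fabp5* at -3.04 (edgeR adjusted p = 0.00253). The exceptions were *Mmp12* at -2.42 (edgeR adjusted p = 0.0590) and *Itgax* at -1.57 (edgeR adjusted p = 0.0712), the genes with the lowest fold changes on WD.

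In WT livers all 10 genes were higher on CDA-HFD than on WD, and no CDA-HFD liver overlapped a WD liver for any of them. Of all 16726 genes tested, 25.9% passed as higher and 37.1% did not overlap. *Gpnmb* rose from 17.9 ± 17.9 CPM on WD to 763 ± 368 CPM on CDA-HFD (SD, n = 5 each), or by 5.40 on the log2 scale (SE 0.75, edgeR adjusted p = 0.000151). *Mmp12* rose from 13.2 ± 9.85 to 403 ± 110 CPM (SD, n = 5 each), or by 4.92 (SE 0.51). *Trem2* rose from 2.56 ± 2.19 to 47.4 ± 17.8 CPM (SD, n = 5 each), or by 4.19 (SE 0.48). The other log2 fold changes were 3.45 for *Lgals3*, 3.18 for *Itgax*, 3.00 for *Lyz2*, 2.52 for *Cd63*, 2.13 for *Lpl*, 2.09 for *Fabp5* and 1.53 for *Cd9*. Each of the 10 calls remained without any single liver.

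In KO livers 6 genes were higher on CDA-HFD than on WD, beside 9.19% of 16387 genes tested. They were *Itgax* (log2 fold change 2.59, edgeR adjusted p = 0.0177), *Mmp12* (3.70), *Trem2* (2.70), *Gpnmb* (3.96), *Lgals3* (2.18) and *Lyz2* (1.81, edgeR adjusted p = 0.0465). The other 4 did not pass, with fold changes of 1.2 for *Cd63*, 0.34 for *Cd9*, 0.02 for *Fabp5* and -0.09 for *Lpl*, which was at 0.27 when libraries were scaled by their size alone. When 1 liver was left out, *Itgax* passed every time. *Mmp12* did not pass without KO liver 2 on WD, and *Trem2* and *Gpnmb* did not without KO liver 2, 4 or 5 on WD. *Lyz2* did not pass without any 1 of the 5 KO livers on WD or without KO liver 1 on CDA-HFD. *Lgals3* did not without KO liver 2, 3, 4 or 5 on WD or KO liver 1 or 5 on CDA-HFD. Without KO liver 2 on WD 1 of the 10 genes was called. Without KO liver 5 on CDA-HFD the 10 genes parted. *Trem2*, *Gpnmb*, *Mmp12*, *Itgax* and *Lyz2* were still higher on CDA-HFD, with 9.03% of all genes, and their log2 fold changes were 1.76, 2.12, 2.49, 1.61 and 0.77. With 8.37% of all genes, *Lpl* was lower, at -0.85 (SE 0.25, edgeR adjusted p = 0.0395), and so was *Fabp5*, at -0.95 (SE 0.30, edgeR adjusted p = 0.0474). *Lgals3* (0.98, edgeR adjusted p = 0.0507), *Cd63* (0.11) and *Cd9* (-0.27) did not pass. In these 4 KO livers *Lpl* was at 41.1 ± 10.1 CPM and *Fabp5* at 4.25 ± 1.26 CPM (SD, n = 4), and in KO livers on WD at 73.7 ± 26.4 and 8.13 ± 2.93 CPM (SD, n = 5).

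Per kilobase of exon, the order of the genes in WT livers on CDA-HFD was *Lyz2* at 642 ± 222 CPM per kb, *Gpnmb* at 117 ± 56.5, *Lgals3* at 103 ± 38.7, *Mmp12* at 55.7 ± 15.1, *Lpl* at 32.4 ± 6.06, *Cd9* at 28.4 ± 7.29, *Cd63* at 26.8 ± 14.6, *Itgax* at 19.0 ± 4.35, *Trem2* at 9.57 ± 3.59 and *Fabp5* at 8.53 ± 4.49 (SD, n = 5). *Gpnmb* and *Lgals3*, the run from *Lpl* to *Cd63*, and *Trem2* and *Fabp5* lay within a standard deviation of each other. In WT livers on WD *Lyz2* was again highest, at 79.7 ± 51.2, followed by *Cd9* at 9.76 ± 4.67 and *Lgals3* at 9.31 ± 5.35, while *Gpnmb* was at 2.74 ± 2.75 and *Trem2* lowest at 0.518 ± 0.443 CPM per kb (SD, n = 5).

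To see whether the genes differed beyond macrophage RNA as a whole, each was set against the mean log2 CPM of 10 general macrophage markers, among them *Adgre1*, *Cd68* and *Csf1r*, in the same liver. That mean was 6.34 ± 0.28 in WT and 5.61 ± 0.43 in KO livers on CDA-HFD, and 5.31 ± 0.48 and 4.98 ± 0.27 on WD (SD, n = 5). On CDA-HFD all 10 genes were lower in KO livers relative to it, with differences on the log2 scale from -0.80 for *Cd9* (exact two-sided permutation test, p = 0.0238) to -2.62 for *Mmp12* (exact permutation test, p = 0.00794). The difference was -1.89 for *Lpl* and -2.03 for *Lgals3*, which like *Mmp12* did not overlap between the groups. It was -2.32 for *Gpnmb*, -1.48 for *Fabp5*, -1.37 for *Trem2*, -1.30 for *Itgax*, -1.28 for *Lyz2* and -1.13 for *Cd63* (exact permutation test, p = 0.0397). Relative to the macrophage markers *Lpl* in KO liver 5 was at 1.14, between the other KO livers (-0.69 to 0.29) and the WT livers (1.87 to 2.28), and *Mmp12* was at 1.26, likewise between (-1.43 to -0.22 and 2.05 to 2.44). For the other genes but *Lgals3*, KO liver 5 was within the WT range. Without it the differences ran from -0.98 for *Cd9* to -3.02 for *Mmp12* (exact permutation test, p = 0.00794 for each gene, the lowest that 5 livers against 4 can give). KO liver 5 was left out for its values in these same genes. The other KO livers lay below every WT liver for each gene, so this p was fixed by leaving it out. On WD the differences ran from -1.41 for *Mmp12* to 0.53 for *Fabp5*, and the smallest exact permutation p was 0.0635, for *Fabp5*. Each diet was a family of 10 tests.

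**Figure D3:**
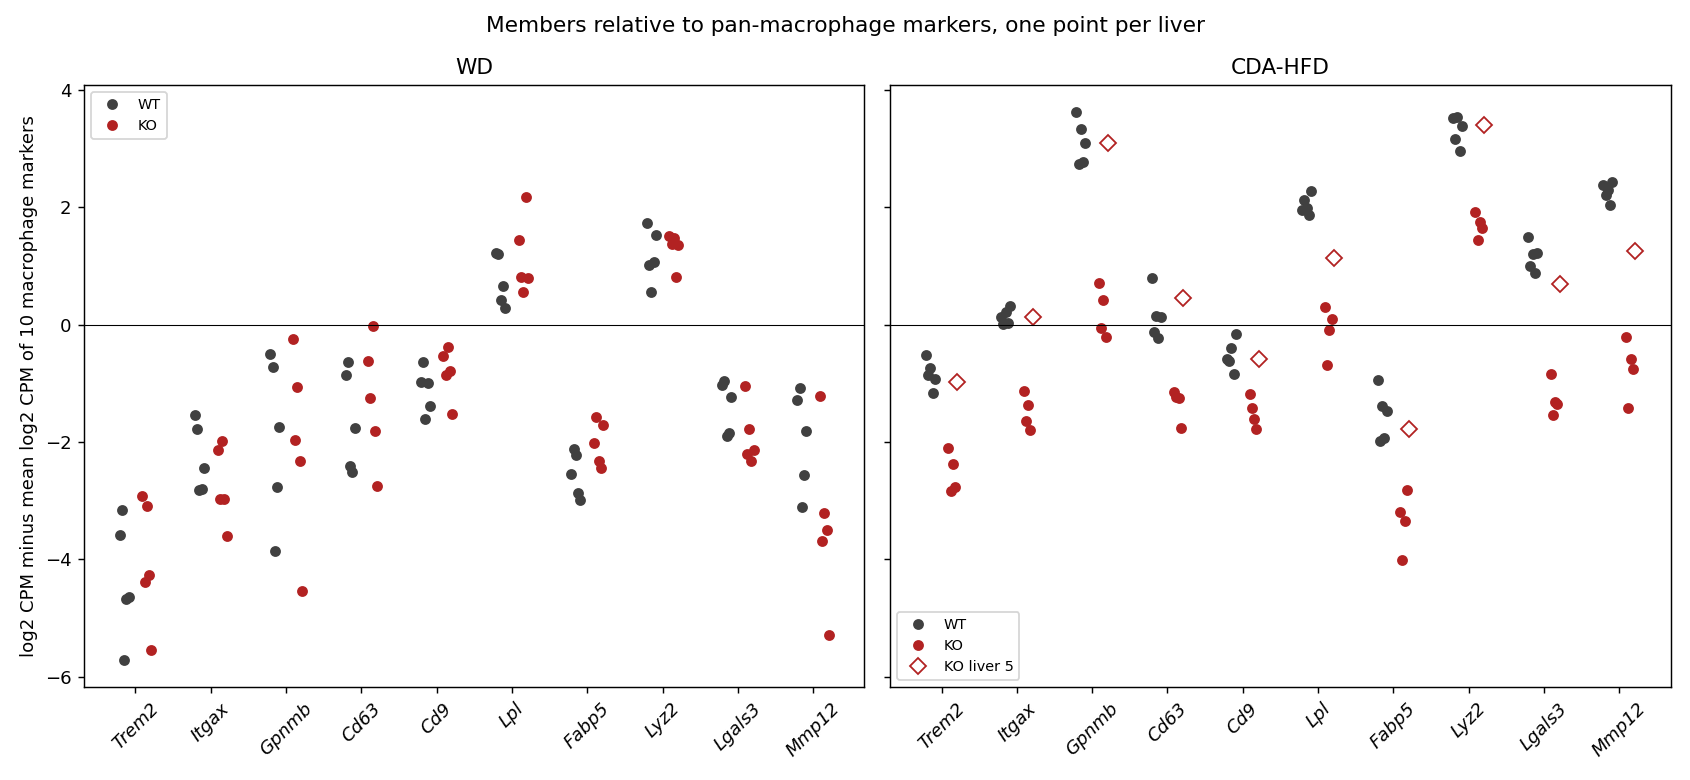
Log2 CPM of each gene minus the mean log2 CPM of 10 general macrophage markers, one point per liver, on WD (left) and CDA-HFD (right). On CDA-HFD the 4 filled KO points lie below the WT points for every gene, and the open diamond, KO liver 5, lies within or just below the WT points except for *Lpl* and *Mmp12*, where it is in between.

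Markers of other cells moved too, and their part in these differences was not tested. Of all genes tested on CDA-HFD, 7.29% were lower and 8.19% higher in KO livers. Without KO liver 5 these shares were 21.8% and 19.6%. They stand beside each count of markers below. On CDA-HFD the general macrophage list had 5 of 10 genes lower in KO livers (median log2 fold change -0.78), among them *Cd68* (log2 fold change -1.53), *Adgre1* (-0.90) and *Csf1r* (-0.71). There were 8 of 10 without KO liver 5 (median -1.05). The list summed to 901 to 1433 CPM in WT, 561 to 661 CPM in KO livers 1 to 4 and 1065 CPM in KO liver 5. Of 7 Kupffer cell markers 1 was higher and none lower: *Cd163*, a scavenger receptor, at 0.855 ± 0.606 CPM in WT livers (SD, n = 5) and at 10.1, 19.8, 23.7, 18.9 and 0.60 CPM in KO livers (log2 fold change 4.14, edgeR adjusted p = 0.0137). *Clec4f* (0.34) and *Timd4* (0.64) did not pass. Leaving out KO liver 5, 3 of the 7 were higher, *Clec4f* among them (0.59, edgeR adjusted p = 0.0395). The Kupffer list summed to 173 to 375 CPM in WT, 299 to 446 CPM in KO livers 1 to 4 and 93.3 CPM in KO liver 5, the lowest of the 20. Monocyte markers were lower for 4 of 7 genes (median -1.24), with *F13a1* at -1.94, and neutrophil markers for 6 of 6 (median -2.13), with *S100a8* at -2.90 (edgeR adjusted p = 0.00578). These counts were 6 and 6 without KO liver 5 (medians -1.59 and -2.84). Neutrophil markers summed to 32.0 to 68.7 CPM in WT and 9.84 to 15 CPM in KO livers 1 to 4, with KO liver 5 at 22.3 CPM, so that this list did not overlap between the groups.

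Among the remaining lists on CDA-HFD, dendritic cell markers had 1 of 6 genes higher (*Clec9a*), T and NK cell markers 0 of 6 tested (*Trbc2* was at 0 in all livers) and B cell markers 0 of 4, and these counts were the same without KO liver 5. Of 9 stellate cell, 8 endothelial and 5 cholangiocyte markers none passed with all livers, and without KO liver 5, 7 stellate and 5 cholangiocyte markers were lower and 7 endothelial markers higher in KO livers. Hepatocyte markers were higher for 2 of 7 genes, *Hnf4a* (0.84) and *Ass1* (1.02), and for 5 of 7 without KO liver 5, and they summed to 31858 to 68586 CPM in WT and 70179 to 102205 CPM in KO livers 1 to 4, with KO liver 5 at 35348 CPM. On WD no gene of any list passed by edgeR.

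**Figure D4:**
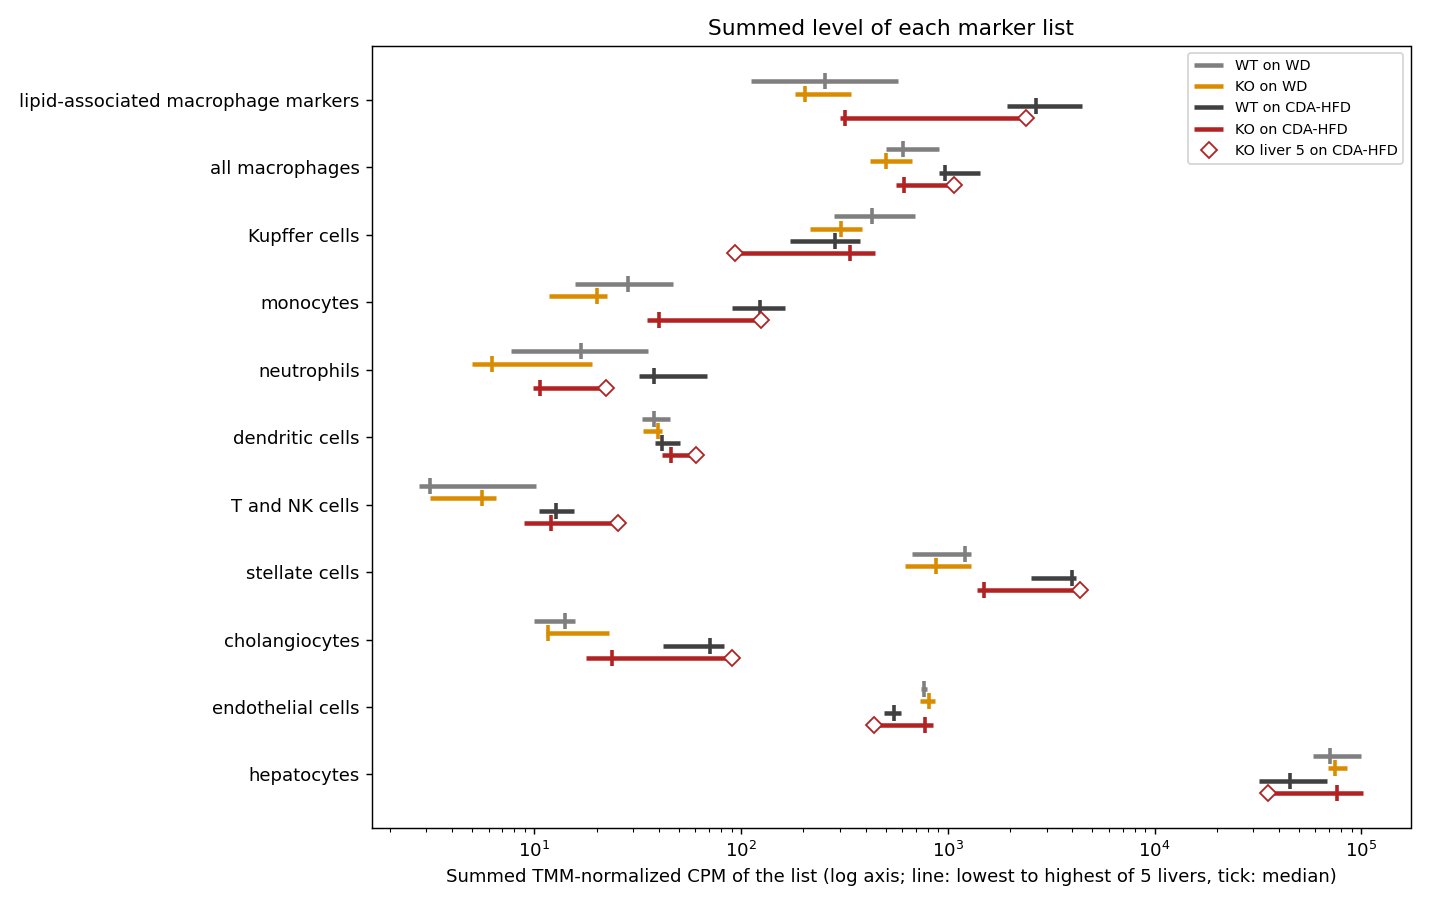
Summed TMM-normalized CPM (log axis) of the 10 genes and of 10 marker lists in each group. Lines run from the lowest to the highest of 5 livers, ticks are medians, and the open diamond is KO liver 5 on CDA-HFD. It lies among the WT livers for the sum of the 10 genes (2392 CPM, WT 1941 to 4436), though *Lpl* and *Mmp12* alone were below every WT liver. For the sum of Kupffer cell markers it lies below the WT livers (93.3 CPM, WT 173 to 375).

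Genes that work with the 10 were taken from lists in the same fit on CDA-HFD. Among all genes tested 7.29% were lower and 8.19% higher, and without KO liver 5, 21.8% and 19.6%. *Apoe*, *Cd68*, *Fabp4*, *Lgals1*, *Mmp8*, *Mmp13* and *Mmp14* stand in more than 1 list. Of 8 genes of TREM2 signaling 5 were lower in KO livers and none higher (median log2 fold change of the list -0.61). *Tyrobp*, the adaptor through which TREM2 signals, was at 123, 60.1, 84.7, 58.1 and 71.0 CPM in WT and at 17.3, 16.9, 16.3, 16.5 and 55.9 CPM in KO livers. No KO liver reached a WT liver (log2 fold change -1.69, SE 0.38, edgeR adjusted p = 0.0190). The kinase *Syk* (-0.97), *Plcg2* (-0.77), and the sheddases *Adam10* (-0.57) and *Adam17* (-0.45) were lower as well, whereas the adaptor *Hcst* (-0.61), the phosphatase *Inpp5d* (-0.60) and the ligand *Apoe* (0.46) did not pass. Without KO liver 5, 7 were lower and *Apoe* was higher.

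The wider lipid-associated program, 31 further genes of lysosomes, lipid handling and the matrix, had 13 lower and none higher in KO livers, and 24 lower and 1 higher without KO liver 5 (medians -0.75 and -0.98). *Mmp13*, a collagenase, had the smallest p of the list (log2 fold change -1.94, edgeR adjusted p = 0.00322). *Mitf*, one of 4 MiT/TFE factors that drive lysosomal genes, was lower, with 31.1 ± 4.67 CPM for WT and 17.5 ± 4.35 CPM for KO livers (SD, n = 5, log2 fold change -0.84, edgeR adjusted p = 0.0137), while *Tfec* (-0.60), *Tfeb* (0.28) and *Tfe3* (-0.16) did not pass. With KO liver 5 left out *Mitf* was still lower and *Tfeb* was higher (0.29, edgeR adjusted p = 0.0352). Of the β2 integrin list, *Itgam* (-1.92) and *Itgb2*, the partner of *Itgax* (-1.41), were lower among 6 genes tested, and *Itgal* (-0.64), *Icam1* (-0.39), *Icam2* (-0.17) and *Fermt3* (-0.80) did not pass. Of these 6 genes, 5 were lower without KO liver 5, all but *Icam2* (-0.20), with *Itgam* at -2.68 and *Itgb2* at -2.06. *Itgad* was too low to test.

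*Lyz1*, which shares stretches of sequence with *Lyz2*, was at 0.200 to 4.50 CPM on CDA-HFD and did not pass (log2 fold change -0.93, edgeR adjusted p = 0.317). *Lyz1* was lower without KO liver 5, which held its highest value (-2.29, edgeR adjusted p = 0.000562). *Pmel*, a relative of *Gpnmb*, was too low to test. Of 11 other tetraspanins and partners 1 was lower with all livers, *Cd53*, a leukocyte protein (-1.62), and *Cd81* did not pass (0.30). In the fit without KO liver 5, 6 were lower and 1, *Cd81* (0.35), was higher. Of 5 genes in the galectin list *Lgals1* was lower (-1.33, edgeR adjusted p = 0.00890), and without KO liver 5, 1 was lower and 2 were higher. Of 4 other fatty acid-binding proteins tested *Fabp7* was lower (-2.03), and *Fabp4* did not pass (-1.28), while without KO liver 5 both were lower (-2.54 and -1.82) and 1 was higher. Metalloproteinases, their inhibitors and elastin had 4 of 13 genes tested lower, with *Timp1* at -2.19, and 11 lower and 1 higher without KO liver 5 (medians -0.72 and -1.54). Of 11 genes that control LPL, 2 were higher in KO livers: *Apoc3* (0.86), an inhibitor made by hepatocytes, and *Apoa5* (0.57), an activator. The count was 8 of 11 without KO liver 5 (medians 0.49 and 0.66). *Gpihbp1*, which anchors LPL to endothelium (-0.07, and 0.07 without KO liver 5), and the inhibitor *Angptl4* (0.38 and 0.34) did not pass either way. *Lipc*, the hepatic lipase, was higher (0.75, and 0.84 without KO liver 5).

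Among 11700 genes outside these lists whose log2 CPM averaged 2 or more, the 5 whose levels over the 20 livers lay closest to the average of the 10 genes were *Serpinb6a*, *Slc37a2*, *Clec7a*, *Pld3* and *Csf2rb2*. Each gene was scaled to a mean of 0 and a standard deviation of 1, and the root-mean-square difference from that average was 0.142 to 0.155, against a median of 1.49 over the candidates. *Clec7a*, the β-glucan receptor Dectin-1, was at 180 ± 70.0 CPM (WT) and 42.9 ± 40.7 CPM (KO, with KO liver 5 at 115 CPM) on CDA-HFD, and at 21.2 ± 14.7 and 12.2 ± 5.30 CPM on WD (SD, n = 5). Measured against the average of the other 9, the 10 genes themselves ranged from 0.179 for *Lgals3* to 0.511 for *Lpl* and 0.572 for *Fabp5*, the 2 genes that stood furthest from the rest.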

How the data were processed

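RNA sequencing of 20 livers was analysed from the table of read counts per gene that the authors deposited. The build was mm10 in the submitters' processing notes, and the aligner and counting program are not given in the sources used here. The 5 entries for unassigned reads were left out; reads with no feature were 20.7% to 28.8% and reads without a unique position 18.0% to 28.7% of all entries. Groups came from the sample labels. Counts were tested in R 4.3.3 with edgeR 4.0.16 (filterByExpr, TMM, quasi-likelihood test, Benjamini-Hochberg adjustment over all genes tested, threshold 0.05) on the 10 livers of a comparison, or on 20 for the interaction. DESeq2 1.42.0, other scalings and filters, all livers in 1 fit, a replicate block and each liver left out were the alternatives. Log2 CPM used a prior count of 2. Single values were compared by exact two-sided permutation over all splits of the livers. The scripts were tested on simulated data. All 10 genes are named, with all genes of 4 short lists, the gene with the smallest p of each other list, and a fixed set of regulators and markers; *Ass1*, *Apoa5*, *Trbc2*, *Adipoq*, *Plin1*, *Lep* and *Cfd*, outside that rule, were named after their values were seen. The genes and lists were chosen with earlier results of these data known.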

Additional observations from a re-analysis of the deposited data

Results flagged for a closer look

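In 12 of 40 groups of 5 livers, 1 liver lay further from the others than Dixon's 95% critical value of 0.71 allows, where chance gives about 5% of groups. Of these, 10 were KO liver 5 on CDA-HFD, so they are 1 library seen through 10 genes. The ratio of its gap to the whole range was 0.889 for *Trem2*, 0.948 for *Gpnmb*, 0.837 for *Cd9*, 0.845 for *Lpl*, 0.859 for *Fabp5*, 0.891 for *Mmp12*, 0.900 for *Itgax*, 0.917 for *Cd63*, 0.954 for *Lyz2* and 0.927 for *Lgals3*. The same library had the lowest Kupffer cell sum of the 20 livers (93.3 CPM) and 1 *Cideb* read, and why it stood apart was not tested.

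*Mmp12* in KO liver 1 on WD was at 15.6 CPM, while the other KO livers were at 0.783 to 3.26 CPM (ratio 0.833). *Cd63* in WT liver 1 on CDA-HFD was at 191 CPM, while the other WT livers were at 60.7 to 96.6 CPM (ratio 0.725).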

How the results depend on the processing

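Of the 10 genes, 6 were called between KO and WT on CDA-HFD, against 2 (*Lpl* and *Mmp12*) with library size only, 10 with the replicate block and 1 to 10 when 1 liver was left out. Between diets in KO livers 6 were called, against 2 with DESeq2, 2 with the replicate block and 1 to 7 without a liver. For the interaction there were 0, against 1 with DESeq2 and 0 to 8 without a liver. On WD there were 0 throughout. Whether the numbers pair the livers is not stated in the labels. Correlations of deviations between livers of the same number ran from -0.367 to 0.349, and the main fits used no pairing.

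Over all genes, calls on WD were 12, against 152 with DESeq2, 38 without a filter, 2 with the replicate block, 26 with all 20 livers in 1 fit and 1 to 33 without a liver. On CDA-HFD they were 2664, against 1709 with library size only, 4036 with DESeq2, 4170 with all livers and 709 to 7201 without a liver. Between diets in KO livers they were 2792, against 4476 with all livers and 1568 to 2881 without one. Interaction calls were 99, against 44 with library size only, 405 with DESeq2, 52 without a filter, 63 with the replicate block and 35 to 2138 without a liver.

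Library size only moved the median log2 fold change of all genes to -0.19 between KO and WT on CDA-HFD, 0.42 between diets in WT, 0.25 between diets in KO livers and -0.15 for the interaction. Of the calls, 69.7% (TMM 47.1%), 14.7% (49.3%), 14.1% (46.1%) and 59.1% (40.4%) were then lower. Relative to that median the 10 genes ran from -2.62 to -1.25 on CDA-HFD.

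Signs turned only where a gene was not called or without a liver. *Lpl* on WD was at 0.062 with the replicate block. Between diets in KO livers *Lpl* was at 0.27 with library size only, and *Fabp5* at -0.0028 with DESeq2, -0.0057 without a filter and -0.36 with the block. Without a liver, WD values ran from -0.65 to 0.24 for *Trem2*, -1.32 to 0.11 for *Gpnmb*, -0.32 to 0.14 for *Cd9*, -0.25 to 0.34 for *Lpl*, -0.50 to 0.35 for *Cd63* and -0.58 to 0.072 for *Lyz2*. Between diets in KO livers they ran from -0.27 to 0.51 for *Cd9*, -0.85 to 0.11 for *Lpl* and -0.95 to 0.24 for *Fabp5*. Relative to macrophage markers on WD they ran from -0.028 to 0.69 for *Trem2*, -0.59 to 0.52 for *Gpnmb* and -0.027 to 0.27 for *Lyz2*. Relative to macrophage markers on CDA-HFD, *Cd63* alone lost its exact permutation p under 0.05, in 5 of the fits without 1 liver. On WD an exact permutation p under 0.05 appeared for *Fabp5* with *Csf1r* alone as reference and without either of 2 livers, and for *Mmp12* and *Lgals3* without KO liver 1.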
